A study of Junco hyemalis with 48 samples.

Results

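The dark second tail feather was compared with the white part of the fourth tail feather in regrowing feathers of the dark-eyed junco (Junco hyemalis), a songbird with white outer and dark inner tail feathers. Tail feathers are called rectrices and are numbered from the middle of the tail outwards, so the second (R2) is an inner feather. The fourth (R4) carries both colours along its length, and the sixth (R6) is the white outer feather. Libraries were chosen by their labels, pigmented R2 on one side and apigmented R4 on the other. Of the 48 libraries of the series, 22 carried these labels, 11 for each tissue. The comparison was made within birds, and 5 of the 7 birds, called A, B, D, F and G, had both tissues. They gave 9 R2 and 10 R4 white libraries, 19 in all. Bird C had R2 only and bird E had the R4 white part only. Left and right feathers were summed within a bird, except that bird F had the left R2 alone.

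All groups used here share species and procedure. Rectrices were plucked to start regrowth and the new feathers were collected 14 days later. The labels give no sex, age or treatment. They carry 7 animal identifiers, which were used as the birds, whereas the growth protocol speaks of 6. R2 was frozen whole, whereas the R4 white part was cut away from the dark part of the same feather before freezing. Colour, feather position and dissection therefore differ together between both tissues and cannot be told apart in this comparison alone. The R4 dark part and R6 of the same birds did not enter the test and were used to describe the gene models it called.

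Feather colour of this kind comes from melanin, which is made by melanocytes at the base of the growing feather and handed to the keratinocytes that form the barbs. A white feather region is one whose keratinocytes receive no melanin. The RNA of a growing feather holds mainly keratinocyte, pulp and blood vessel transcripts, with melanocytes as a minority. In such bulk samples, fewer cells of a type and less RNA per cell cannot be told apart. The deposited table names its 20808 gene models only by the letter g and a number and does not pair them with gene names, so functions are not assigned and melanocyte markers could not be looked up. For the same reason only 4 identifiers are printed, and the other gene models are described by counts and levels.

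Library totals ran from 14768995 to 30016313 counts for R2 and from 12987431 to 53462453 counts for the R4 white part. Summed profiles held 16757059 to 75974483 counts. The R4 white part was the less uniform tissue. Its 20 most abundant gene models took between 13.6% and 22.9% of the counts, with bird A highest and bird G next at 19.0%, against 13.9% to 15.8% in R2. The white minus dark difference in this share averaged 2.48 percentage points ± 3.96 (SD over 5 birds) and was above 0 in 3 of them, and it averaged 1.01 without bird A. It did not pass a two-sided exact permutation of signs (p = 0.375, with 0.0625 the smallest p that 5 birds allow). The first principal component of the 10 profiles held 28.1% of the variance and set the R4 white part of bird A apart, at 73.6, with the R4 white part of bird G next at 20.4 and all other profiles between -20.25 and 1.02. Over all 14987 gene models tested, the spread between birds (SD of log2 CPM, where CPM are counts scaled to a common library total) had a median of 0.22 in R2 and 0.25 in the R4 white part, and it was larger in the R4 white part for 57.9% of them. The R4 dark profile of bird B is used only in the second part of the results. It was the lowest of the 5 birds for g3235, g2687 and the groups of 32 and 15 called gene models described there. In the group of 28 it lay among the other birds, at a mean log2 CPM of 3.90. No value over all gene models is given for this profile. The values of bird B, or values without it, are given beside many of the results that use it.

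The comparison asks which transcripts differ between a dark feather and a white feather region a short way outward on the tail. More of the gene models called were higher in the dark feather than lower, by a margin that depended on the tool and on the profiles fitted. Of 14987 gene models, 83 (0.554%) were called in edgeR's quasi-likelihood test with the bird as a block, at a Benjamini-Hochberg adjusted p below 0.05. Of these, 78 (0.520%) were higher in R2 and 5 (0.0334%) were lower. DESeq2 called 178 higher and 65 lower, and limma voom 213 and 63. An edgeR fit of all 4 tissues in the 26 profiles of all 7 birds called 154 and 58. At an unadjusted p below 0.05 there were 822 higher and 710 lower gene models, and the median log2 fold of all gene models was 0.00338. The higher gene models had a median log2 fold of 1.16, with a range from 0.34 to 4.39. Of them, 49 exceeded 2-fold, 22 exceeded 4-fold and 7 exceeded 8-fold. The 5 lower gene models lay between -0.43 and -1.41 with a median of -1.04, and 3 of them exceeded 2-fold.

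**Figure D1:**
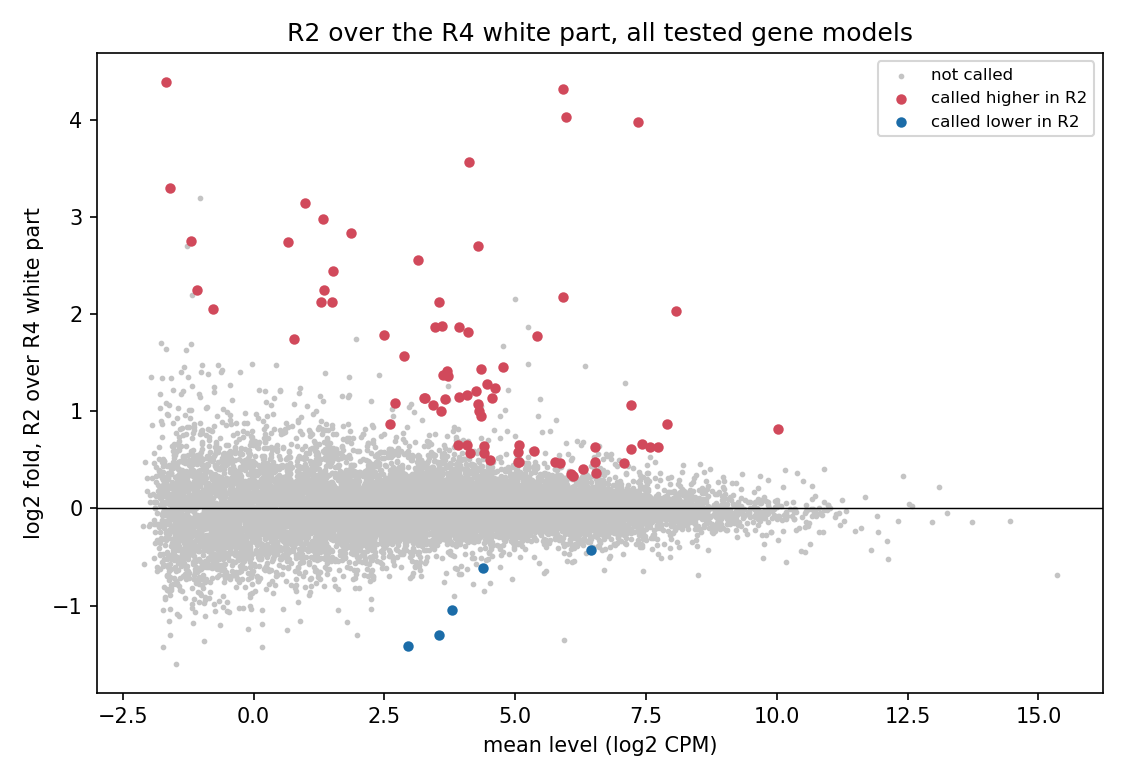
Log2 fold of R2 over the R4 white part (vertical axis) against the mean level in log2 CPM (horizontal axis) for the 14987 tested gene models, with the 78 called higher in R2 in red and the 5 called lower in blue. Folds above 2 on the log2 scale occur among called gene models from 0.31 CPM to 268.5 CPM, while no called gene model lies below -1.41.

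The largest fold among the printed identifiers was that of g3235. In R2 it stood at 122 CPM in bird A, 124 in B, 113 in D, 105 in F and 113 in G. In the R4 white part it stood at 7.09 CPM in bird A, 3.22 in B, 4.23 in D, 24.0 in F and 2.98 in G. The lowest R2 value was thus above the highest R4 white value, and bird F had by far the highest white value. R2 averaged 115 CPM ± 7.78 and the R4 white part 8.31 CPM ± 8.94 (SD over 5 birds each). The fitted log2 fold was 4.31 with an SE of 0.47 (edgeR, adjusted p = 0.00998), or 19.9-fold, with R2 higher in 5 of 5 birds. The high value of bird F came from its right feather, with 38.5 CPM, whereas its left feather held 8.66 CPM. Without that right library, the log2 fold was 4.61.

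A similar contrast was seen for g2687. Its R2 values were 120.5 CPM in bird A, 132.5 in B, 121 in D, 109 in F and 109 in G. Its R4 white values were 9.67 CPM in bird A, 4.42 in B, 5.67 in D, 29.0 in F and 2.98 in G, again without overlap and again with bird F highest. The log2 fold was 4.03 (SE 0.47, adjusted p = 0.0127), or 16.3-fold, with R2 higher in each of the 5 birds. In bird F the right R4 white feather held 42.9 CPM and the left 14.1 CPM. In bird G the left R4 white feather held 0.31 CPM, on 5 counts. Relative to their level, both gene models thus varied more between birds in the R4 white part than in R2. In CPM the spread was similar, with an SD for g2687 of 10.7 in the R4 white part and 9.78 in R2 (5 birds each).

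Among the gene models lower in R2, g18961 had the largest fold. It stood at 3.63 CPM in bird A, 4.47 in B, 5.49 in D, 3.35 in F and 3.47 in G in R2. In the R4 white part it stood at 6.25 CPM in bird A, 17.2 in B, 12.2 in D, 11.03 in F and 9.74 in G. In these 5 birds every R2 value was below every R4 white value, with bird A closest to its R2 level. The log2 fold was -1.41 (SE 0.18, adjusted p = 0.0137), or 2.66-fold higher in the R4 white part, with R2 lower in each of the 5 birds. The other lower gene model printed is g258. Its R2 values were 8.37, 7.01, 6.25, 5.06 and 7.24 CPM in birds A, B, D, F and G, and its R4 white values were 18.7, 17.6, 17.6, 16.2 and 13.2 CPM. The groups did not overlap, and the 5 white values lay closer together than those of g18961. Its log2 fold was -1.30 (SE 0.13, adjusted p = 0.00544), lower in R2 in 5 of 5 birds.

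**Figure D2:**
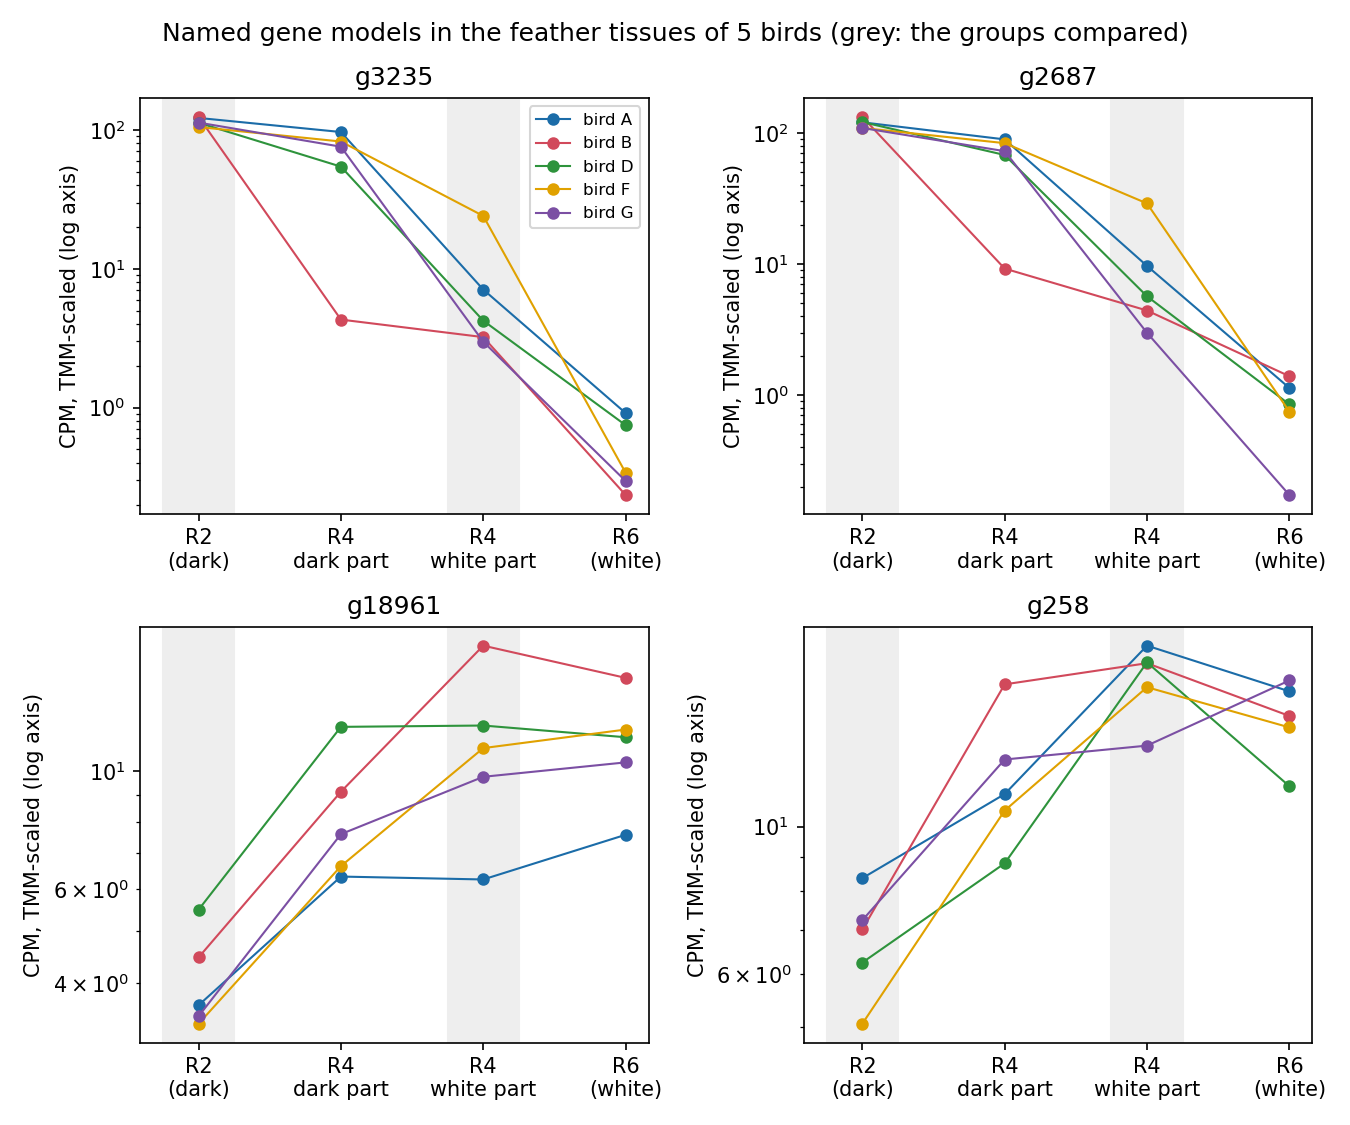
CPM (log axis, TMM-scaled) of g3235, g2687, g18961 and g258 in R2, the R4 dark part, the R4 white part and R6, with 1 line per bird (n = 5) and the tissues compared shaded grey. The first pair falls from R2 to the R4 white part in every bird and is lowest in R6, while g18961 and g258 are lowest in R2. Bird B has low values of the first pair in the R4 dark part, at 4.31 and 9.22 CPM.

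Some alternatives ended the calls of these gene models while their folds moved little. Both g3235 and g2687 lost their call without bird A, B, D or G (adjusted p between 0.0934 and 0.301), with log2 folds of 4.05 to 4.33 for g3235 and of 3.73 to 4.10 for g2687, and kept it without bird F (3.08e-04 and 7.00e-04). They also lost it without the filter on low counts (log2 folds 4.31 and 4.02, adjusted p = 0.125 and 0.147) and with counts thinned to the lowest total (4.20 and 3.90, adjusted p = 0.0636 and 0.0661), and g2687 in left feathers alone (4.49, adjusted p = 0.0601). The call of g18961 was lost without bird B, D, F or G and in feathers of either side alone (log2 folds -1.27 to -1.49, adjusted p between 0.0615 and 0.110). That of g258 was kept with any 1 bird left out (adjusted p between 0.00234 and 0.0379) and was lost in left feathers alone (log2 fold -1.19, adjusted p = 0.0885).

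The direction of the called gene models was the same in every bird on which they were called. All 78 higher gene models were higher in R2 in 5 of 5 birds, and all 5 lower ones were lower in 5 of 5. Of all gene models tested, 11.4% moved the same way in the 5 birds, 892 higher and 810 lower. For 56 of the 78 higher gene models every R2 value was above every R4 white value, against 141 (0.941%) of all tested. For 3 of the 5 lower gene models every R2 value was below every R4 white value, against 69 (0.460%) of all tested. Bird by bird, the median log2 difference of the 78 gene models was 1.19 in A, 1.18 in B, 1.32 in D, 1.03 in F and 1.26 in G. Bird F had the smallest difference of the 5 birds for 37 of the 78 gene models, and bird D the largest for 25. The log2 differences over all tested gene models had an SD of 0.73 in bird A and 0.35 in bird B. In bird A 13.4% of gene models were more than 2-fold apart and in bird B 2.24%, while the medians of the 78 were 1.19 and 1.18. The calls came from a paired test on these same birds, which favours gene models with similar differences. Shared direction, lack of overlap and similar medians therefore follow in part from that choice.

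**Figure D3:**
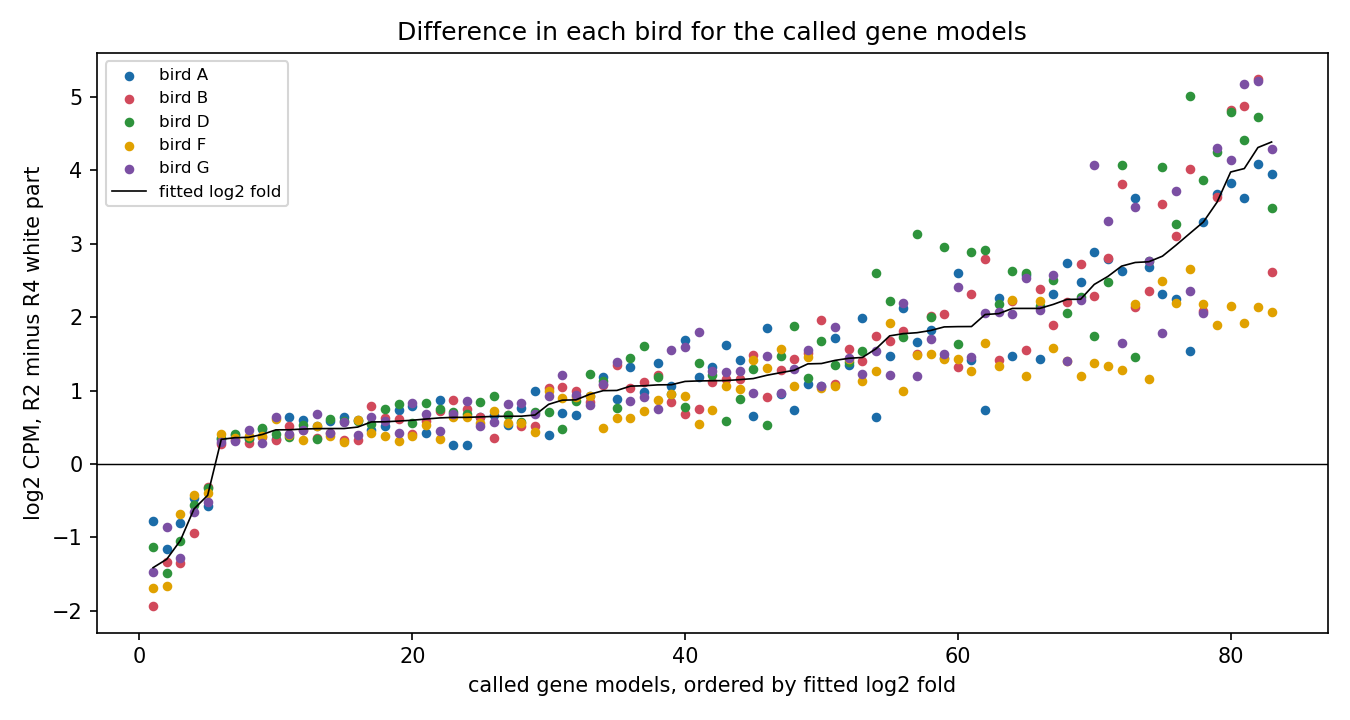
Log2 CPM of R2 minus the R4 white part in each of the 5 birds (points) for the 83 called gene models, ordered by the fitted log2 fold (line). All points of the 5 lower gene models are below 0 and all points of the 78 higher ones are above 0, and bird F lies lowest among most of the gene models with the largest folds.

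RNA was extracted in 3 batches, and both tissues of each of the 5 birds were extracted in the same batch. The median log2 difference of the 78 higher gene models was 1.20 in batch 1 (birds A and B), 1.32 in batch 2 (bird D) and 1.18 in batch 3 (birds F and G). For the 5 lower gene models it was -1.08, -1.05 and -0.98. The log2 difference of g3235 was 4.67, 4.73 and 3.68 in the 3 batches and that of g258 was -1.24, -1.48 and -1.26. The gene models were called on these same birds, so the signs within batches are fixed by that choice and only the sizes are described.

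The called gene models lay over most of the range of levels. The 78 higher gene models had a median level of 19.4 CPM, from 0.31 to 1036 CPM, where all tested gene models had a median of 16.8 CPM. Of the 78, 10 (12.8%) were above 100 CPM, against 13.5% of all tested, and 5 were below 1 CPM. The 5 lower gene models ranged from 7.53 to 86.7 CPM. The SD of the log2 CPM of the higher gene models over 5 birds had a median of 0.27 in R2 and 0.44 in the R4 white part. The larger SD was in the R4 white part for 61 of 78, against 57.9% of all tested. The 78 were called as lower in the R4 white part, so their log2 SD there was taken at lower levels.

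Bird C and bird E took no part in the calls, and each carried one of the tissues. Set against each other, R2 of bird C was above the R4 white part of bird E for 70 of the 78 higher gene models, with a median log2 difference of 1.11, and below it for all 5 lower ones, with a median of -0.47. Over all tested gene models, 51.4% were above 0 and the median was 0.01. R2 of bird C was above all 5 R4 white values of the other birds for 69 of the 78 gene models. Those 5 white values took part in the calls, so this count follows in part from that choice. The share over all tested gene models was not computed for it. Of the named gene models, g3235 stood at 148.5 CPM in R2 of bird C and 3.38 CPM in the R4 white part of bird E. For g2687 these values were 125.2 and 13.35 CPM, and for g258 5.88 and 18.02 CPM. For g18961 they were close, at 4.52 and 4.84 CPM, and the value of bird E was below R2 of bird D, at 5.49 CPM. R2 of bird C and the R4 white part of bird E are single profiles of different birds from different extraction batches, so this is a description with no test.

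Feathers of the left and right side gave the same comparison on both sides of the same birds. In left feathers of 5 birds 26 of 13846 gene models (0.188%) were called, and in right feathers of 4 birds 55 of 14213 (0.387%). The 25 gene models called higher in left feathers were all above 0 in right feathers, with a median log2 fold of 1.45 on the left and 1.56 on the right, and 17 of them were called there. Over all gene models, 51.0% were above 0 in right feathers. The 48 called higher in right feathers were all above 0 in left feathers, with medians of 1.15 and 1.25, and 17 of them were called there. The 7 gene models called lower in right feathers were all below 0 in left feathers, with a median of -0.96 on the right and of -0.60 on the left.

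Left against right feathers of the same tissue served as a comparison without a colour difference. Over the 9 pairs of libraries, 0 of 13853 gene models (0%) were called in edgeR and 0 in DESeq2, with 469 and 446 at an unadjusted p below 0.05. The 9 pairs came from 5 birds and both tissues were fitted together, so a side difference in a single tissue could be missed. The log2 fold of left over right was -0.38 for g3235 (unadjusted p = 0.246 in edgeR, adjusted p = 0.994) and 0.10 for g258 (adjusted p = 0.994), so neither passed the test.

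The R4 dark part and R6 of the same birds share no library with R2 and the R4 white part, and they also set dark against white tissue. In these 5 birds, 6 of 15492 gene models (0.0387%) were called in edgeR, 4 higher and 2 lower in the R4 dark part. All 4 of the higher ones were among the 78, so the shared calls made up 4.82% of the 83 and 66.7% of the 6. Without bird B, 201 of 15528 (1.29%) were called, of which 36 were among the 78 and higher in the R4 dark part, and 17 were among the 78 and lower there. Without bird F 4 were called. With bird A, D or G left out edgeR called 0, with 696, 1914 and 520 gene models at an unadjusted p below 0.05, and DESeq2 called 140 in all 5 birds.

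The 78 gene models did not move as 1 block in that comparison. Of 76 that were tested there, 42 were above 0, with a median log2 fold of 0.17, against a median of -0.00627 and 48.3% above 0 for all gene models. Their folds spread far to both sides. A log2 fold above 1 was seen for 17 and one below -1 for 12 of the 76, against 0.252% and 0.729% of all gene models. At an unadjusted p below 0.05, 33 were higher in the R4 dark part and 27 were higher in R6, against 2.92% and 3.11% of all gene models. In 5 of 5 birds, 24 were higher in the R4 dark part and 26 were higher in R6, against 4.23% and 4.10% of all gene models. Bird by bird the median difference was 0.28 in A, -0.17 in B, 0.24 in D, 0.20 in F and 0.29 in G, so bird B alone was below 0. Without bird B the median was 0.29, with 45 of 76 above 0.

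**Figure D4:**
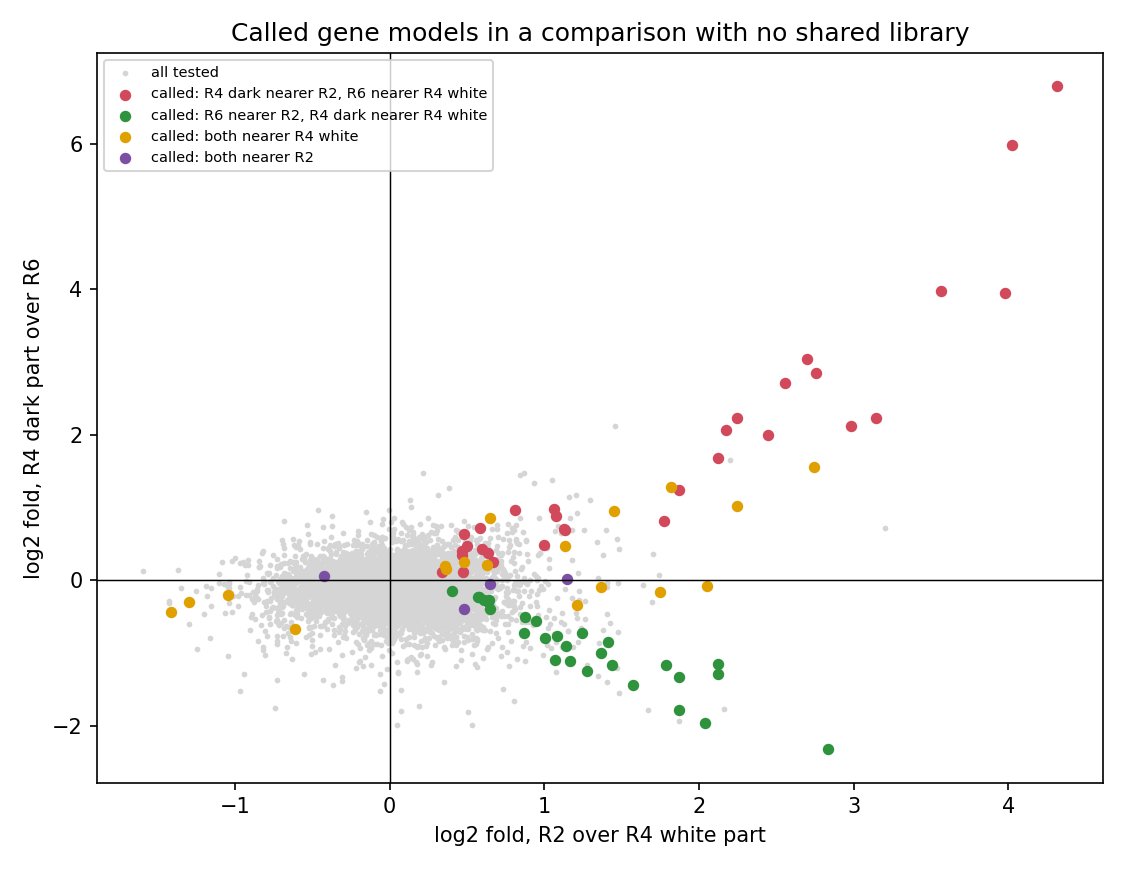
Log2 fold of the R4 dark part over R6 (vertical axis) against the log2 fold of R2 over the R4 white part (horizontal axis), with all tested gene models in grey and called ones coloured by where their mean levels in the R4 dark part and R6 lie relative to R2 and the R4 white part. Called gene models on the right divide into an arm that rises to 6.79 and an arm that falls to -2.33.

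Each called gene model was then placed by whether its mean log2 CPM in the R4 dark part and in R6 was nearer to R2 or to the R4 white part. The mean of the R4 dark part included bird B. For 32 of the 78 higher gene models (41.0%) the R4 dark part was nearer R2 and R6 nearer the R4 white part, the order of colour. Over all tested gene models this order held for 21.2%. For 28 of the 78 (35.9%) R6 was nearer R2 and the R4 dark part nearer the R4 white part, so that both undissected feathers were high and both parts of R4 were low. This order held for 21.8% of all gene models. For 15 (19.2%) both were nearer the R4 white part, and for 3 both were nearer R2. The corresponding shares of all gene models were 21.9% and 35.2%. These groups were formed from the levels themselves, so the values and counts of calls below describe them and no test of the groups is attached.

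The 32 gene models in the order of colour had a mean log2 CPM of 4.89 ± 0.12 (SD, n = 5 birds) in R2, 4.24 ± 0.55 in the R4 dark part, 3.12 ± 0.41 in the R4 white part and 2.63 ± 0.11 in R6. The R4 dark part of bird B was the exception, at 3.27, with the other 4 birds between 4.39 and 4.60. In the R4 white part bird F was highest, at 3.78, and the other 4 birds lay between 2.67 and 3.18. The larger SD of the R4 dark part thus went with bird B. These 32 held 14 of the 22 gene models above 4-fold, and g3235 and g2687 were among them. In R6 g3235 averaged 0.51 CPM ± 0.30 (SD, n = 5) and in the R4 dark part 62.8 CPM ± 36.0, on at most 50 counts in an R6 profile. Its log2 fold of the R4 dark part over R6 was 6.79 (SE 0.50, adjusted p = 0.0487 in edgeR). For g2687 that fold was 5.99 (SE 0.82, adjusted p = 0.141). Without bird B these folds were 7.06 (SE 0.24, adjusted p = 2.14e-05) and 6.73 (SE 0.25, adjusted p = 7.21e-05). Bird B held the lowest R4 dark value of both gene models, so leaving it out favoured these results and they only describe. With bird A, D or G left out, edgeR called 0 gene models in this comparison, so g3235 lost its call there.

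The 28 gene models that were high in both undissected feathers had a mean log2 CPM of 4.85 ± 0.15 (SD, n = 5) in R2, 4.70 ± 0.17 in R6, 3.77 ± 0.33 in the R4 dark part and 3.60 ± 0.32 in the R4 white part. The values of R2 lay between 4.69 and 5.06 and those of R6 between 4.54 and 4.90, all above those of the R4 white part, between 3.21 and 4.07, and of the R4 dark part, between 3.43 and 4.27. Tissues of either colour were thus on each side of this difference. Whether it went with the position of R4 or with dissection cannot be told apart, because R4 was the only feather dissected. Their log2 folds of R2 over the R4 white part ran from 0.40 to 2.83, and 4 of them exceeded 4-fold. R2 of bird C was above the R4 white part of bird E for 22 of the 28, and for 31 of the 32 in the order of colour. For 15 of the 28 no R4 white value reached the R2 values, against 27 of the 32 and 141 (0.941%) of all tested gene models. The same values entered the calls and the placing, so these counts only describe. The median log2 fold was 1.15 for the 28 and 1.45 for the 32.

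The 15 gene models with both other tissues nearer the R4 white part had a mean log2 CPM of 3.66 ± 0.13 (SD, n = 5) in R2, 2.65 ± 0.85 in the R4 dark part, 2.31 ± 0.18 in the R4 white part and 2.29 ± 0.18 in R6. The R4 dark part of bird B stood at 1.18, and the other 4 birds between 2.75 and 3.27, which is above their R4 white parts. In those 4 birds the R4 dark values were nearer the R2 mean than the R4 white mean in 2, A and G, so the placing of this group rested in part on bird B. In the R4 dark part over R6 without bird B, 7 of the 14 that were tested were called higher, as were 29 of 31 in the order of colour, and 17 of the 28 high in both undissected feathers were called lower. Of all 15528 gene models in that fit, 90 were called higher and 111 lower. The groups were placed by levels that include those of these birds, so the directions were largely fixed by the placing and the counts only describe. Of the 5 gene models called lower in R2, 4 also had both other tissues nearer the R4 white part. Among them were g18961, at 8.36 CPM ± 2.36 in the R4 dark part and 11.3 CPM ± 2.67 in R6 (SD, n = 5), and g258, at 11.9 CPM ± 2.83 and 14.6 CPM ± 1.98. The R4 dark part of bird B held 9.14 CPM of g18961 and 16.35 CPM of g258. For g258 this was the highest R4 dark value, so bird B drew its R4 dark mean towards the R4 white part.

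**Figure D5:**
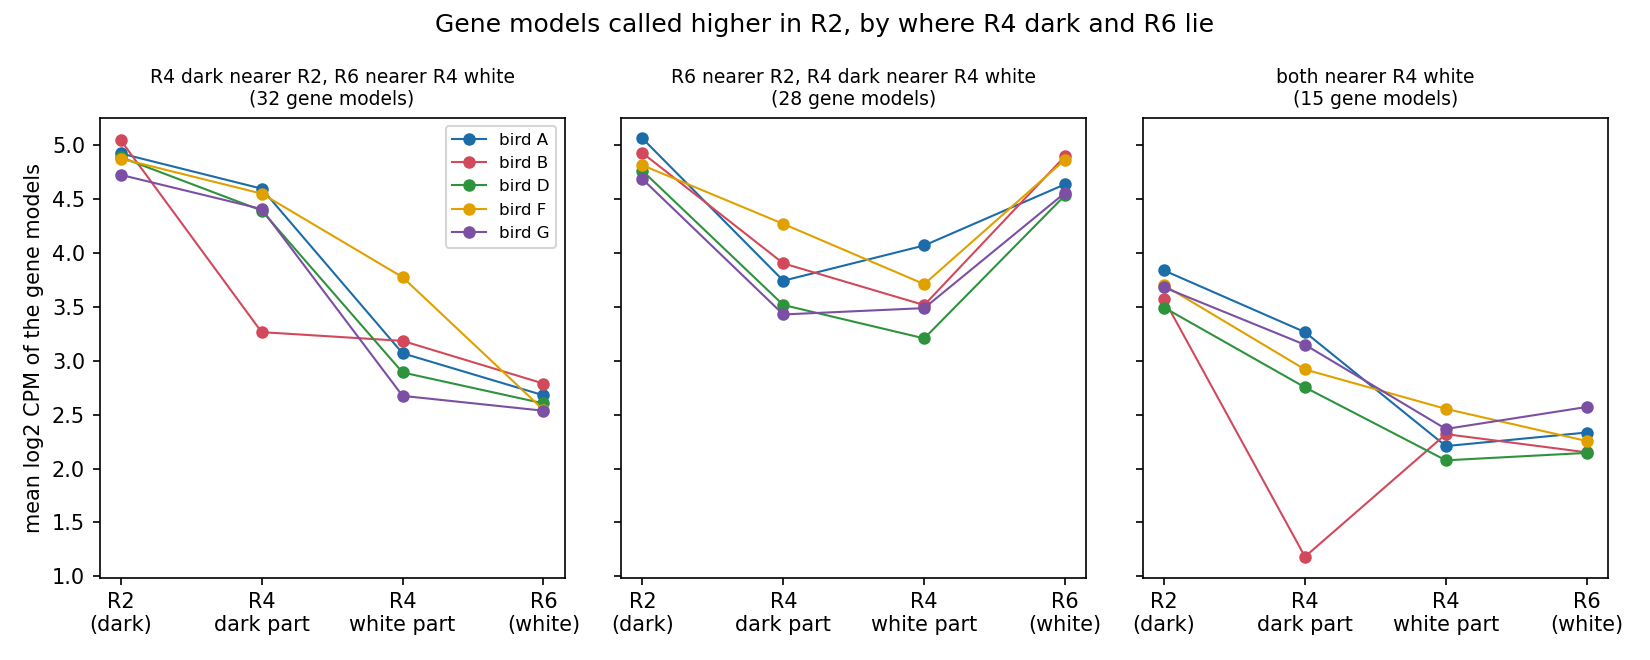
Mean log2 CPM of the gene models called higher in R2, in R2, the R4 dark part, the R4 white part and R6 of the 5 birds (1 line each), for the 32 in the order of colour, the 28 high in both undissected feathers and the 15 with both other tissues nearer the R4 white part. The R4 dark part of bird B lies at 3.27 and 1.18 in the panels of the 32 and the 15, below the other birds.

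Birds C and E, which had no part in the placing, each had an R4 dark part and R6. For the 32 gene models in the order of colour the mean log2 CPM of bird C was 5.21 in R2, 5.13 in the R4 dark part and 3.09 in R6, and that of bird E was 4.59 in the R4 dark part, 2.84 in the R4 white part and 2.52 in R6. Both birds thus had dark tissue above white tissue. In bird E each tissue was a left feather alone, and its R4 white part was extracted in batch 3 but its R4 dark part and R6 in batch 2. For the 28 gene models high in both undissected feathers, bird C stood at 4.45 in R2, 4.51 in R6 and 4.30 in the R4 dark part, and bird E at 4.75 in R6, 3.14 in the R4 dark part and 3.89 in the R4 white part. The step between R6 and R4 was therefore small in bird C and larger in bird E. For the 15 gene models the R4 dark part stood at 3.46 in bird C and 2.89 in bird E, above R6 at 2.19 and 2.02, so these birds did not share the low R4 dark value of bird B.

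Whether the fold of R2 over the R4 white part differed from that of the R4 dark part over R6 was tested in 1 fit of all 4 tissues of the 5 birds. The folds differed for 58 of 15837 gene models (0.366%), 55 of them more positive for R2 over the R4 white part, and for 52 without bird A, 40 without B, 28 without D, 40 without F and 22 without G. This difference contains the contrast on which the 78 were called, so the counts among them are a description. It also equals R2 and R6 together against both parts of R4, a contrast in which colour cancels. The fit had the bird as a block but did not model that both R4 parts came from the same feathers. The p-values of this contrast may therefore be too small. Of the 78 higher gene models, 29 were among these 55, and of the 5 lower ones 2 were among the 58. The 29 comprised 27 of the 28 gene models high in both undissected feathers, 2 of the 3 for which both other tissues were nearer R2, and 0 of the 32 in the order of colour. The groups were placed by the same levels in the same birds, so this division follows largely from the placing. The difference did not pass the test for g3235, at -2.57 on the log2 scale (SE 0.93, adjusted p = 0.572), or for g2687, at -2.21 (SE 0.85, adjusted p = 0.609), nor without bird B, at -3.25 (adjusted p = 0.141) and -3.21 (adjusted p = 0.112). For g258 it was -1.003 (SE 0.19, adjusted p = 0.0294), a call that was lost when any 1 bird was left out (adjusted p between 0.0639 and 0.232), and for g18961 it was -0.98 (SE 0.21, adjusted p = 0.0634), or -0.91 without bird B (adjusted p = 0.179). The log2 fold of the R4 dark part over R6 itself was -0.30 for g258 (SE 0.12, adjusted p = 0.785), and -0.43 without bird B (SE 0.08, adjusted p = 0.0389). Bird B was the only bird above 0 for g258, so leaving it out favoured that result. For g18961 the fold of the R4 dark part over R6 was -0.43 (SE 0.14, adjusted p = 0.647), and -0.37 without bird B (SE 0.14, adjusted p = 0.344).

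The number of calls depended on single birds. It was 25 without bird B, 29 without D, 43 without F, 18 without G and 122 without A, and 17 of the 83 gene models were called whichever bird was left out.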

How the data were processed

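Growing feathers were profiled by stranded mRNA sequencing with 75 bp reads, per the labels' protocols. Trimmomatic 0.33, bcl2fastq, STAR 2.7.2b, Subread 1.6.0 and featureCounts were used, per the submitters' processing notes. Genome build, annotation, settings and order of steps: not given in the sources used here. What the authors deposited are raw counts per gene model, 1 column per library, all matched to samples by library name. Overlapping or near-identical gene models could not be recognised, and their values are uncertain.

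Left and right counts were summed per bird and tissue. The chi-square per gene between left and right libraries was 4.36 to 63.5, so none was a repeat of another. Counts of the 10 profiles were tested with edgeR 4.0.16 (R 4.3.3) by the robust quasi-likelihood F test with TMM scaling, the default expression filter and the bird as a block, which left 4 residual degrees of freedom. Calls used a Benjamini-Hochberg adjusted p below 0.05 over all tested gene models. SE is the fold divided by the square root of F. Per-bird CPM, tissue means and the levels used for placing were scaled by TMM over the 26 profiles of the series. CPM averaged over all profiles compared, non-overlap counts, median SDs and log2 differences within birds used TMM over the profiles of the fit. Single left or right libraries were scaled separately, and log2 CPM used a prior count of 2. Pairing came from the animal: after subtracting group means, both tissues of a bird correlated across genes at 0.28 to 0.57, and tissues of different birds at a median of -0.12. Subtracting group means by itself puts the correlations of different birds below 0 when those within birds are above it.

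Named gene models are the 2 in each direction with the largest absolute log2 fold among calls that had 1 direction in all birds and averaged 1 CPM or more. The comparison, rules and alternatives were chosen with earlier results of these data known. The test of the difference between folds, the levels in other tissues and the placing by those levels were added after the calls had been seen. DESeq2 1.42.0 and limma 3.58.1 were alternatives, beside other scaling, filters, libraries and birds left out. The model was tested on simulated data.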

Additional observations from a re-analysis of the deposited data

Results flagged for a closer look

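Of 33 sets of 5 birds that were examined, 3 had 1 bird far from the others. Chance gives about 1 in 20, or 1.65 sets if they were independent. In the R4 white part bird F held 24.0 CPM of g3235, against 7.09 in the next highest bird. It also held 29.0 CPM of g2687, against 9.67 in the next highest. In the R4 dark part bird B held 9.22 CPM of g2687, against 67.9 in the next lowest bird. In bird F the right feather held most of this, at 38.5 CPM of g3235 against 8.66 CPM in the left, and leaving out the right library gave log2 folds of R2 over the R4 white part of 4.61 for g3235 and 4.23 for g2687.

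The dark over white fold differed between the tissue pairs, by the test of the difference in edgeR, for 58 gene models. That test did not model that both R4 parts came from the same feathers. Among the 58 was g258, with a difference of -1.003 on the log2 scale (adjusted p = 0.0294), which was not called with any 1 of the 5 birds left out.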

How the results depend on the processing

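RLE scaling, no robust estimation, thinning, a minimum of 5 CPM, all 6 profiles of each tissue unpaired and omission of the right R4 white library of bird F (chosen after seeing the data) gave counts within 1.5 times of 83, though without that library 17 instead of 5 gene models were lower. Of the 83, the unpaired fit called 51 and thinning 54. DESeq2 called 243 (178 higher, 65 lower) and limma voom with sample weights 276 (213 and 63). With all 4 groups of all 7 birds in 1 fit, 212 (154 and 58) were called. No replicate block gave 43 (40 and 3), left feathers 26 (25 and 1) and right feathers 55 (48 and 7). DESeq2 and limma called all 83 and the 4-group fit 75 of them. Without a filter on low counts 8 were lower. Leaving out 1 bird gave 18 to 122 calls, 17 to 106 higher and 1 to 16 lower. In these 18 alternatives no log2 fold of the 4 named gene models changed sign. That follows largely from naming only gene models with 1 direction in all birds. Of the 83 gene models, 8 were called in every alternative. For the R4 dark part over R6, 15 gene models were called without the filter, 140 by DESeq2 and 0 to 201 without 1 bird. It was 0 in edgeR without A, D or G, where 696, 1914 and 520 had an unadjusted p below 0.05. Folds differed between the tissue pairs for 22 to 52 gene models without 1 bird, lowest without G and 28 without D. Left over right stayed at 0 in 8 alternatives in edgeR or DESeq2. With the most abundant 100 gene models, left feathers alone or 1 bird left out, the share difference lay between 1.01 and 3.32 points and did not pass its test. The cause of these changes was not tested. With counts thinned to the lowest total, 58 gene models were called.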
